A study of Drosophila melanogaster with 2 samples.

Results

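The genes examined here are 41 Drosophila melanogaster genes for Polycomb group proteins, Trithorax group proteins and chromatin remodelling enzymes. They were listed by name, and all 41 were found among the 13945 protein-coding genes annotated on the 6 main chromosome arms of dm6, calypso under its current symbol caly. The question was where an eGFP fusion of CG7786 was found by chromatin immunoprecipitation and sequencing (ChIP-seq) at these genes. CG7786 is a predicted bZIP transcription factor of the PAR type, a family that binds DNA as dimers. At the 41 genes lay 56 of the 4045 peaks in the authors' list. Peaks were assigned by summit. A gene counted as having one if a summit was no more than 500 bp from any of its transcription start sites (TSSs), or if it was in the gene span, meaning the gene body plus 2000 bp upstream.

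Polycomb and Trithorax group proteins hold genes such as the Hox genes in a repressed or an active state through cell divisions. Polycomb repressive complex 2 (PRC2) methylates histone H3, Polycomb repressive complex 1 (PRC1) binds that mark and compacts chromatin, and DNA-binding factors such as Pho bring the complexes to Polycomb response elements. Trithorax group proteins include histone methyltransferases of active genes and the Brahma remodeller, a SWI/SNF enzyme that slides or evicts nucleosomes with the energy of ATP. Many of these proteins are loaded into the egg and are used in nearly all embryonic tissues.

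The material was whole embryos of both sexes, collected 0 to 24 hours after laying from a transgenic line that stably carries CG7786 with GFP at its C terminus. All stages and tissues were therefore mixed, and the 2 libraries, biological replicates 2 and 3, belong to 1 group with no other condition. A peak held in few cells and a weaker one held in many cannot be told apart. Signal values are the authors' score per peak on the scale of their caller. They were compared only within a list, and a rank of 1 is the strongest entry. Read numbers were unknown, so no value carries a depth. The irreproducible discovery rate (IDR) list, which the authors derived from both replicates and their pool, ran from a signal value of 79.5 to 2909 with a median of 130.1.

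CG7786-eGFP was found at the promoters of 20 of the 41 genes, or 48.8% (95% exact interval 32.9 to 64.9, counting error only), where 19.5% of all protein-coding genes had a peak within 500 bp of a TSS. Among them were genes for some core subunits of both Polycomb complexes (ph-p, Pc, E(z), esc and Su(z)12), though Psc and Sce of PRC1 were not. Others were the genes for the GAGA factor (Trl) and for the remodeller ATPases Brm and Ino80. Another 10 genes had a peak in the gene span and none at a TSS. Together 30 of 41 had a peak in the span, or 73.2% (57.1 to 85.8), beside 27.7% of all genes. With the gene body alone and no upstream bases the count was 13 of 41, beside 11.0% of all genes. Most of the 30 were thus counted through upstream bases. Of the genes counted in that way, ph-d, phol, caly and HDAC1 had no summit within 500 bp of their own TSS, and the others did. Some of these summits were also at the promoter of a neighbour. The remaining 11 genes had none. No summit was counted for more than 1 of the 41 genes.

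The gene span grows with gene length, and a summit at a promoter shared with another gene can be counted for either. The 41 genes differed from other genes in length and in the share of such promoters. Their median length was 6487 bp, while that of all genes was 2166 bp. Of the members at least 6487 bp long, 19 of 21 (90.5%, 69.6 to 98.8) had a peak in the span, and of all genes of that length 46.5% did. Another gene's TSS lay within 500 bp of a TSS of 25 of the 41, and of 34.4% of all genes. At such shared promoters 14 of 25 members (56.0%, 34.9 to 75.6) had a peak beside 35.2% of all genes, and at promoters not shared 6 of 16 (37.5%, 15.2 to 64.6) beside 11.2%. Of those 6, Pc (82.53), Su(z)2 (82.57), Utx (84.11) and pho (84.92) had peaks near the lowest IDR value of 79.5. The strongest TSS peaks of ph-p (1778) and esc (157.7) were farther above it. Genes with 1 TSS gave 12 of 27 (44.4%, 25.5 to 64.7) beside 14.9%, and genes with 2 or more TSSs gave 8 of 14 (57.1%, 28.9 to 82.3) beside 32.1%. The interval of the members held the share of all genes for shared promoters and for genes with 2 or more TSSs, and lay above it in the other classes. These intervals cover counting error only, so their position does not tell in which classes the genes differ. The genes were picked with earlier results of these data known, so the shares are given as descriptions with no test.

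**Figure D1:**
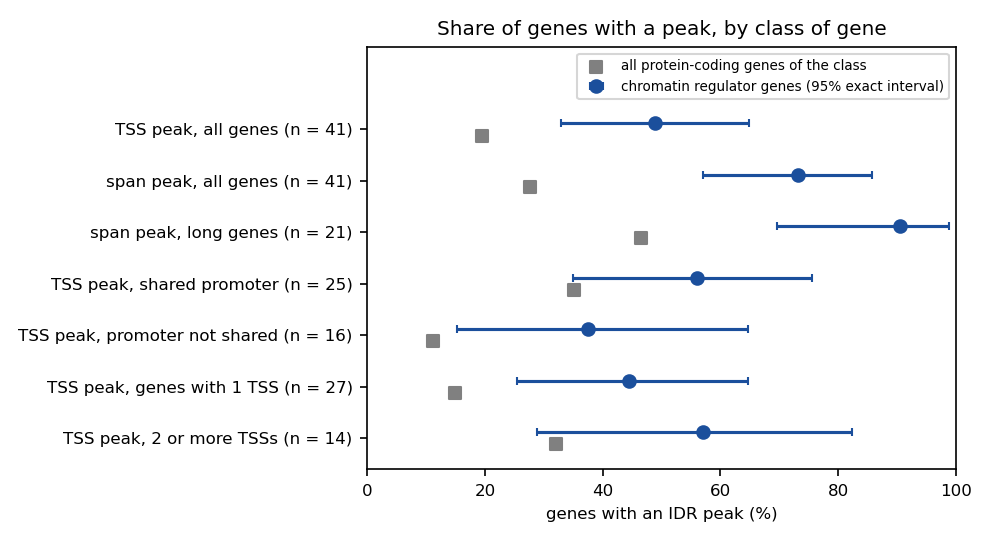
Percentage of genes with an IDR peak (x axis) in 7 classes of gene (y axis, n is the number of the 41 genes in the class). Blue points are the 41 Polycomb, Trithorax and remodelling genes with 95% exact intervals and grey squares all protein-coding genes of the class: the blue point is at 48.8% and the grey square at 19.5% for a peak at a TSS.

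Member peaks covered most of the range of the IDR list. Their signal values ran from 82.53 to 1778 with a median of 148.0, and 34 of 56 (60.7%) were among the 2022 strongest of all IDR peaks. Of the 10 member summits that ranked in the first 500, 4 were at a TSS of the member, 2 were at the TSS of another gene and 4 were at no TSS. The weakest were those at Pc (82.53) and Su(z)2 (82.57). Just below the end of the IDR list, at 76.82 in the pooled relaxed list, was an entry at the TSS of Acf.

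**Figure D2:**
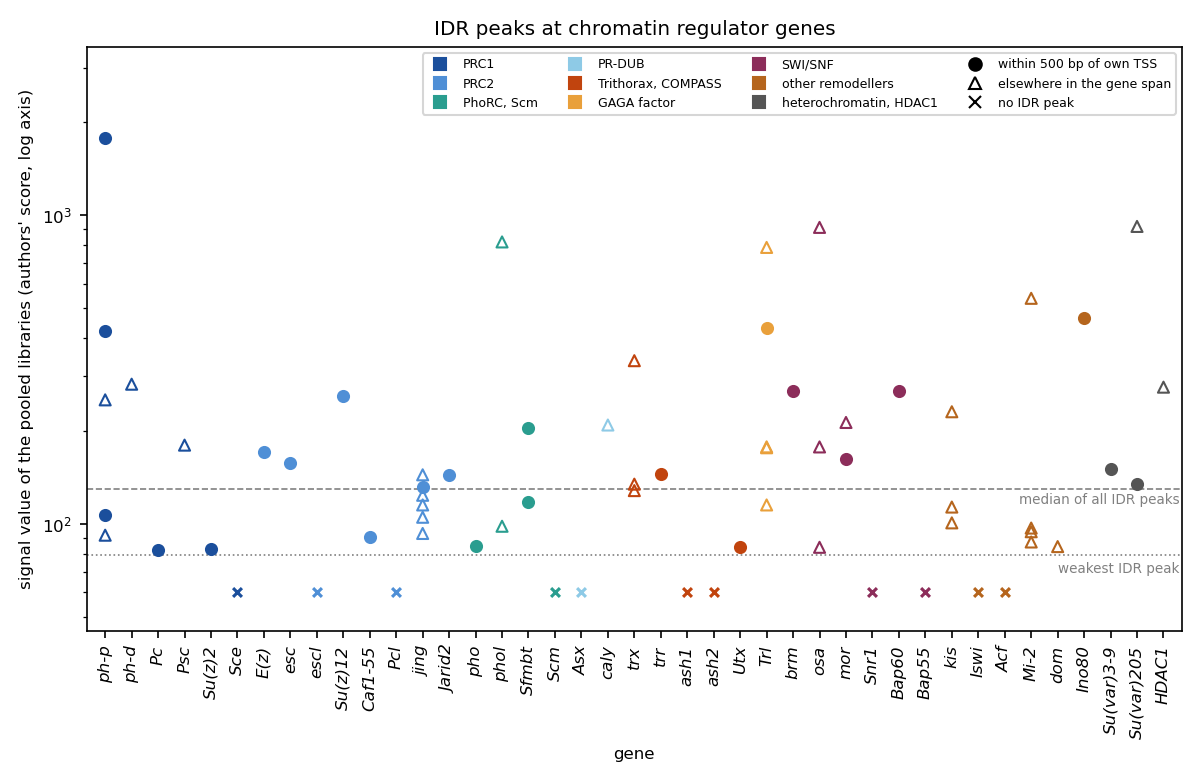
Signal value of each of the 56 IDR peaks (y axis, the authors' score in the pooled libraries, log axis) at the 41 genes (x axis), coloured by complex. Filled circles are peaks within 500 bp of a TSS of the gene, triangles are peaks elsewhere in the gene span, crosses are the 11 genes with none, and the dashed and dotted lines are the median (130.1) and the lowest (79.5) of all IDR peaks; the strongest point is ph-p at 1778.

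PRC1 had a peak at 5 of its 6 genes and a TSS peak at 3. The strongest of all member peaks was in ph-p (Polyhomeotic proximal, a SAM domain subunit of PRC1), at X:2137156-2137565 (dm6). Its signal value was 1778 in the pool, 693.6 in replicate 2 and 1096 in replicate 3, and it ranked 5, 6 and 5 in the 3 lists. The summit was in an intron, 1041 bp downstream of the 5′-most TSS of ph-p and 475 bp upstream of an internal one. The 200 bases around this summit are shown because it is the strongest peak at any of the 41 genes. They held none of the DNA words searched, so no letters are in capitals.
ph-p, X:2137230-2137429, plus strand: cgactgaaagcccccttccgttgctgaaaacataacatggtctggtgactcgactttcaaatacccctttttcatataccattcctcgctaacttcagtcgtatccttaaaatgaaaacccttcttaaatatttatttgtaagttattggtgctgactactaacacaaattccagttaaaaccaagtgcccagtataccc

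A further 4 peaks were in ph-p. That at X:2137699-2138084 was in the 5′ UTR, 402 bp downstream of the first TSS, with a pooled signal value of 422.5 and ranks of 207 and 187 in replicates 2 and 3. An intron peak 1236 bp downstream of the nearest TSS had 252.0 (ranks 648 and 622), a 5′ UTR peak 88 bp from an internal TSS had 106.4 (2933 and 2724), and an intron peak at 2192 bp had 91.85 (3520 and 4641). ph-p was thus covered on both sides of its internal promoters, in both libraries. Its tandem copy ph-d had 1 peak, at X:2123940-2124140, 744 bp upstream of the first TSS, with 283.2 in the pool, 125.7 in replicate 2 (rank 422) and 161.6 in replicate 3 (rank 578). The copies are alike in sequence. At 55 of the 56 member peaks every 36-base word occurred once in the genome sequence of the 6 arms. The exception was the strongest ph-p peak (1778), where 96.3% of the words did. The read length and the handling of reads that match both copies are not known, so a part of shared reads in these values was not tested.

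Psc and Su(z)2, neighbouring genes for related RING finger subunits, had 1 peak each. That of Psc was in an intron 5095 bp downstream of the nearest TSS (179.8; ranks 1336 and 1115), and that of Su(z)2 was 81 bp downstream of a TSS (82.57; ranks 4593 and 3914). Pc, the chromodomain protein that reads the PRC2 mark, had a peak 8 bp upstream of its TSS (82.53; ranks 3011 and 4477). Both TSS peaks were close to the end of the list. Sce, the histone H2A ubiquitin ligase of the complex, had no IDR peak, and neither the pooled nor the replicate 3 relaxed list had an entry at its TSS. The nearest IDR summit was 3162 bp beyond its 3′ end, at the TSS of Hsdl2.

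PRC2 had TSS peaks at 6 of its 8 genes, with 11 peaks in all. E(z), the methyltransferase, had a peak 35 bp downstream of a TSS with 171.1 in the pool and ranks of 1181 and 1392. Su(z)12, a core subunit that E(z) needs for activity, had the strongest promoter peak of the group, 72 bp downstream of the TSS, with 259.1 in the pool, 112.8 in replicate 2 (rank 534) and 146.2 in replicate 3 (rank 691). esc, whose WD40 protein stimulates E(z), had a peak 33 bp upstream (157.7; ranks 1146 and 2025), inside an intron of Pde1c. Caf1-55, a histone-binding protein shared with other complexes, had a weaker one 91 bp upstream (90.78; ranks 2485 and 5603). The summit at E(z) was 51 bp from the TSS of Cnep1r2, that at Su(z)12 281 bp from that of Pfdn6 and that at Caf1-55 156 bp from that of CG31344, each nearer to the member. escl, the paralogue of esc, had no IDR peak, and its TSS entry ranked 27234 in the pooled list.

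Among the PRC2 accessory factors, jing and Jarid2 had peaks and Pcl had none. Jarid2 had 1 summit 56 bp upstream of its TSS (143.5; ranks 2144 and 1609), but 17 bp from that of Uch-L5. jing, a zinc finger gene 119787 bp long, had 6 peaks between 93.05 and 144.1, more than any other of the 41 genes. Its TSS peak was 14 bp downstream of an internal TSS (132.0; ranks 1205 and 2615). The other 5 were in introns, of which the strongest was 44551 bp from the nearest TSS (144.1; ranks 1624 and 2007), and it overlapped another whose summit was 209 bp away (105.0). The peaks were on either side of the IDR median of 130.1 and were spread over much of the gene. At Pcl the nearest IDR summit was 1867 bp beyond the 3′ end, at the TSS of pAbp (167.9).

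The DNA-binding arm, PhoRC with Scm, had peaks at 3 of 4 genes. Sfmbt, the partner of Pho in PhoRC, had 2 overlapping peaks upstream of its first TSS, at 106 bp (205.0; ranks 940 and 915) and at 305 bp (117.8; ranks 1892 and 2650). The promoter is shared with CG5439, whose TSS was 60 bp from the weaker summit. pho itself, on the small dot chromosome, 4, had a peak 268 bp upstream of its TSS near the end of the list (84.92; ranks 3739 and 4149). Its paralogue phol had no peak at its own TSS. A strong one at 3L:9457648-9457972, 1526 bp upstream, had 818.1 in the pool, 297.1 in replicate 2 (rank 60) and 522.0 in replicate 3 (rank 53). It was 105 bp from the nearest TSS of CG3437 and CG3552. Beside it was a weaker overlapping peak (98.19; ranks 4049 and 3675), also at these neighbours. Scm, which links PhoRC with PRC1, had none. The window of the stronger Sfmbt summit is shown because it is 1 of the 2 member windows with a DRE, TATCGATA, a promoter element bound by DREF; capitals mark it.
Sfmbt, 2L:13176791-13176990, plus strand: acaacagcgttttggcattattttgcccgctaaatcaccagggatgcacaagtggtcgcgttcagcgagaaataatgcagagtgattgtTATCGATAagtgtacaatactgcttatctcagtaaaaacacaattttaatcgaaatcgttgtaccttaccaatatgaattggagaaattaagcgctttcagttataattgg

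In PR-DUB, the complex that removes ubiquitin from histone H2A, neither gene had a TSS peak. The peak counted for caly, the catalytic subunit, was 535 bp upstream (208.9; ranks 697 and 1114), just past the 500 bp limit. It was 174 bp from the nearest TSS of Lipt1, CG42837 and CG44242. Asx, its partner, had no IDR peak within its span, and the nearest was 14075 bp beyond the 3′ end at ttv (210.5).

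Of the 5 histone-modifying Trithorax genes, trr and Utx had a TSS peak and trx had peaks elsewhere. trx, a methyltransferase of active chromatin, had a peak at 3R:14283751-14284020, in an intron 3041 bp downstream of its TSS. This peak had 337.5 in the pool, 128.6 in replicate 2 (rank 405) and 214.5 in replicate 3 (rank 323). A second intron peak at 3744 bp had 134.4 (ranks 2246 and 1664), and another was 1928 bp upstream, 240 bp from the TSS of red (128.1; ranks 1766 and 2267). trr, the methyltransferase of a COMPASS-like complex, had a summit 177 bp upstream (144.6; ranks 2844 and 1616) that was 129 bp from the TSS of mRpL16. Utx, the demethylase that removes the PRC2 mark, had a peak 176 bp downstream of a TSS (84.11) for which the libraries differed in rank, 8786 in replicate 2 and 3238 in replicate 3.

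ash1 and ash2 had no peak by the rule. ash1, a methyltransferase that counters Polycomb silencing, nonetheless lay next to the second strongest IDR peak. Its summit, in 3L:19590413-19590808 (2576; ranks 3 and 2), was 153 bp beyond the 3′ end of ash1 and at the TSS of CG14100. At the TSS of ash1 itself the pooled entry ranked 10786. ash2, a COMPASS subunit, had a TSS entry at rank 4253 (76.44), shortly below the end of the IDR list.

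Trl encodes the GAGA factor, which opens chromatin at GA-rich promoters and response elements, and it had 5 peaks. The strongest was in an intron at 3L:14759307-14759717, 1530 bp from the nearest TSS, with 785.3 in the pool, 300.5 in replicate 2 (rank 58) and 486.2 in replicate 3 (rank 59). The TSS peak at 3L:14757082-14757330 was 109 bp downstream of an internal TSS, in 5′ UTR sequence, with 431.3 in the pool, 179.0 in replicate 2 (rank 181) and 259.8 in replicate 3 (rank 201). CG42507 overlaps Trl there. Another pair of intron peaks had 177.5 (ranks 845 and 1687) and 176.3. For the latter the nearest entry of replicate 2 ranked 19591, although another within 200 bp ranked 2603, and replicate 3 ranked it 771. The fifth was upstream in an intron of Mgat4a, 410 bp from the TSS of that gene (115.1; ranks 2868 and 2367). The window of the strongest Trl summit is shown because it ranked alike in both libraries and holds ACAGTG, in capitals, a word described further on.
Trl, 3L:14759392-14759591, plus strand: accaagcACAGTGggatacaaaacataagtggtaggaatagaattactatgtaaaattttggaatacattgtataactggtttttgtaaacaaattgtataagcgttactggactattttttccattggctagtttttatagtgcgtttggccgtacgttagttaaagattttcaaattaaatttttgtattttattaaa

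**Figure D3:**
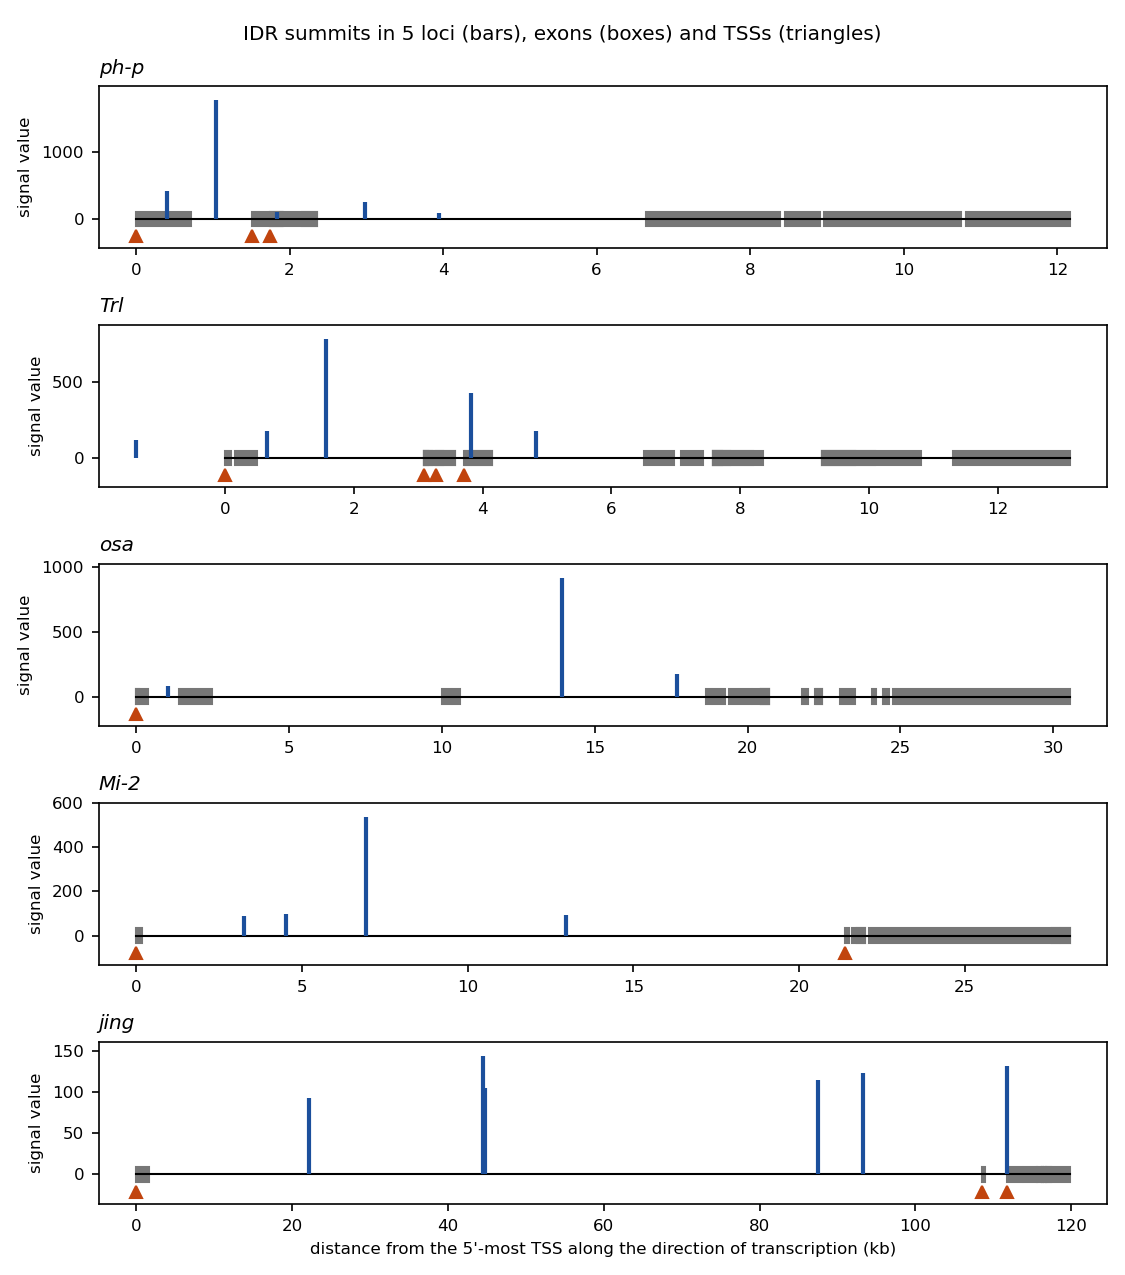
IDR summits (blue bars, height is the signal value of the pooled libraries) along 5 genes, with exons as grey boxes and TSSs as red triangles, against the distance in kb from the 5′-most TSS in the direction of transcription. In ph-p the bar of 1778 is between the first and the second TSS, in Trl, osa and Mi-2 the tallest bar is in an intron of the gene, and in jing 6 bars of similar height are spread over the gene.

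Of the 6 genes of the Brahma complex, 4 had a peak and 3 had one at a TSS. brm, the ATPase, had a summit 71 bp upstream of a TSS, at 3L:15982865-15983059, with 268.8 in the pool, 119.9 in replicate 2 (rank 468) and 149.9 in replicate 3 (rank 657). Bap60, an accessory subunit, was close to it with 269.8 (X:13159419-13159822; ranks 635 and 574), but there the TSS of CG12096 was 17 bp from the summit and that of Bap60 113 bp. mor, the scaffold subunit, had a TSS peak 161 bp upstream (161.7; ranks 1667 and 1365) and a second in an intron of Hel89B, 1545 bp upstream (212.9; ranks 1510 and 653). Snr1 and Bap55, smaller subunits, had no peak, and their TSS entries ranked 12244 and 5412 in the pool. The brm window is shown up to the start of transcribed UTR sequence, because this summit was nearer to the TSS of the member than to that of its neighbour Arl1 (195 bp), with CACTGT, the reverse complement of ACAGTG, in capitals. The full window also held GCCAT, the core of the Pho site, in the bases not shown.
brm, 3L:15982870-15983039, plus strand: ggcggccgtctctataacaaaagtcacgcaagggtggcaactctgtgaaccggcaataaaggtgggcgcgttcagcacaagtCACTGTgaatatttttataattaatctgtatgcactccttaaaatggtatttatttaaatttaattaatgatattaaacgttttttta

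osa, the ARID subunit that marks 1 form of the Brahma complex, had the strongest peak of the group away from its promoter. At 3R:17704242-17704565, 13944 bp downstream of the TSS, it had 911.8 in the pool, 358.4 in replicate 2 (rank 44) and 549.1 in replicate 3 (rank 45). The summit was within an exon of lncRNA:CR46035, a non-coding gene inside osa. A second osa peak (177.4) was 97 bp from the TSS of lncRNA:CR46036, and its nearest entries ranked 3580 and 820. The last was 1035 bp downstream of the TSS (83.93; ranks 2443 and 5851). At the TSS of osa an entry ranked 4304 (75.74), outside the IDR list. The window of the strongest osa summit is shown as the strongest peak inside any member gene but away from all TSSs; capitals mark ACACTG and GCCAT, the core of the Pho site.
osa, 3R:17704306-17704505, plus strand: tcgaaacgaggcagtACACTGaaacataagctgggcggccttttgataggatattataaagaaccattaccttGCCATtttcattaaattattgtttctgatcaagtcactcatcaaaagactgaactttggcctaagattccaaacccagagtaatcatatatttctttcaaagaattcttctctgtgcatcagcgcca

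Among the other remodellers, 4 of 6 had a peak but 1 alone, Ino80, had one at its TSS. Ino80, the ATPase of a complex that slides and spaces nucleosomes, had a summit 116 bp upstream at 3R:19403105-19403405, with 462.6 in the pool, 188.0 in replicate 2 (rank 160) and 272.4 in replicate 3 (rank 181). The TSS of Aptx was 186 bp from it on the other side. It was the second strongest TSS peak among the 41 genes, after ph-p, and its window is shown for that reason, with ACACTGT in capitals, in which ACACTG and the reverse complement of ACAGTG overlap.
Ino80, 3R:19403169-19403368, plus strand: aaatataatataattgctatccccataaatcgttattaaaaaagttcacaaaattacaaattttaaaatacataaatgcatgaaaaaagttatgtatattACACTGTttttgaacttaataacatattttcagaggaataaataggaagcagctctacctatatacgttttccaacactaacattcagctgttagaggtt

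Mi-2, the ATPase of the NuRD complex, had 4 peaks, all in its body and none at a TSS. The strongest, at 3L:19903121-19903427, was 6931 bp downstream of the nearest TSS, with 537.3 in the pool, 198.8 in replicate 2 (rank 139) and 344.1 in replicate 3 (rank 113). The other 3 had 87.32, 94.26 and 96.88. All 4 also lay within Su(Tpl), which overlaps Mi-2, so a peak cannot be given to either gene by position. kis, a CHD-type remodeller opposed to Polycomb silencing, had 3 peaks, of which the strongest (230.6; ranks 827 and 730) was 35 bp from the TSS of lncRNA:CR44222. Its other peaks were in introns (113.3 and 100.7). dom, the ATPase that deposits the H2A variant, had 1 weak peak 548 bp downstream of its TSS (84.37; ranks 3212 and 3745). Iswi and its partner Acf had none, with TSS entries at ranks 4670 and 4219. The strongest Mi-2 window is shown as an intron peak with none of the words searched.
Mi-2, 3L:19903184-19903383, plus strand: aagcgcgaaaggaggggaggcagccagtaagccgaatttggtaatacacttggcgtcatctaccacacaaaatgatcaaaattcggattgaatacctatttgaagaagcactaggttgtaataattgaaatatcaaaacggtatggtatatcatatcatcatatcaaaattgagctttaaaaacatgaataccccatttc

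The heterochromatin genes and HDAC1 all had a peak in the span. Su(var)205, the gene of HP1a, had the second strongest member peak, at 2L:8212821-8213182, with 918.3 in the pool, 362.5 in replicate 2 (rank 41) and 552.2 in replicate 3 (rank 43). It was 1868 bp upstream of the gene and 31 bp from the nearest TSS of CG8360 and CG8372. At its own promoter Su(var)205 had 135.0 (184 bp upstream; ranks 2219 and 1656), with the TSS of Ssb-c31a 41 bp away. Su(var)3-9, the histone H3 methyltransferase whose mark HP1a binds, had a summit 59 bp upstream (150.8; ranks 1321 and 1826) and 35 bp from the nearest TSS of eIF2gamma and Set. HDAC1, a histone deacetylase used by several repressors, had a peak at 3L:4624709-4625112, in an intron of Src64B 1823 bp upstream (277.0 in the pool, 80.38 in replicate 2 and 197.5 in replicate 3; ranks 1012 and 388). No relaxed list had an entry at its TSS.

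By role, the 20 genes of the Polycomb complexes had 26 peaks, with a TSS peak at 11 and any peak at 15. The 21 other genes had 30 peaks, with a TSS peak at 9 and any peak at 15. Of the 26, 6 were in the long gene jing. Over all protein-coding genes, 19.5% had a TSS peak and 27.7% a peak in the span. Those shares are also the background for the counts by complex above. Whether these groups differ was not tested.

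Summits at the members' own promoters were within 500 bp of a start site by the rule. The 23 such summits belonged to the 20 genes, 15 of them upstream and 8 downstream of the nearest TSS of the gene. Their median distance was 106 bp, and 15 were within 120 bp. Of the 23 summits at own promoters, 13 were also within 500 bp of the TSS of another gene, which was the nearer for 6 of them. A ChIP-seq peak between 2 starts cannot be assigned to either gene. Of the 33 summits not at an own TSS, 8 were at the TSS of another gene and 25 at none. Of these 25, 22 were in the body of the member, 20 of them in introns, and 3 were upstream of it.

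In place, the member peaks were much like the rest of the list. Within 500 bp of any TSS lay 31 of 56 summits (55.4%, 41.5 to 68.7) and 55.3% of all IDR summits. In introns more than 500 bp from a TSS lay 22 of 56 (39.3%, 26.5 to 53.2) and 31.8% of all. The pairs of overlapping peaks at jing, phol and Sfmbt, with summits 199 to 209 bp apart, were kept as separate peaks.

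Both libraries held most member peaks. Of the 56 summits, 52 had an entry within 200 bp among the 4045 strongest of replicate 2 and 50 among those of replicate 3. In both were 46 (82.1%, 69.6 to 91.1), beside 77.5% of all IDR summits, and none was in neither. The authors chose the IDR list from these libraries, so the counts describe that choice too. The 4 missing from replicate 2 were at Su(z)2, jing, phol and Utx, and the 6 missing from replicate 3 were at ph-p, Pc, Caf1-55, pho, osa and Mi-2. All 10 had pooled signal values of 82.53 to 105.0. Spearman's rho between the ranks in the replicates was 0.821 over the 56 member summits and 0.737 over the 4019 IDR summits matched in both lists, given as descriptions across peaks that share libraries.

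**Figure D4:**
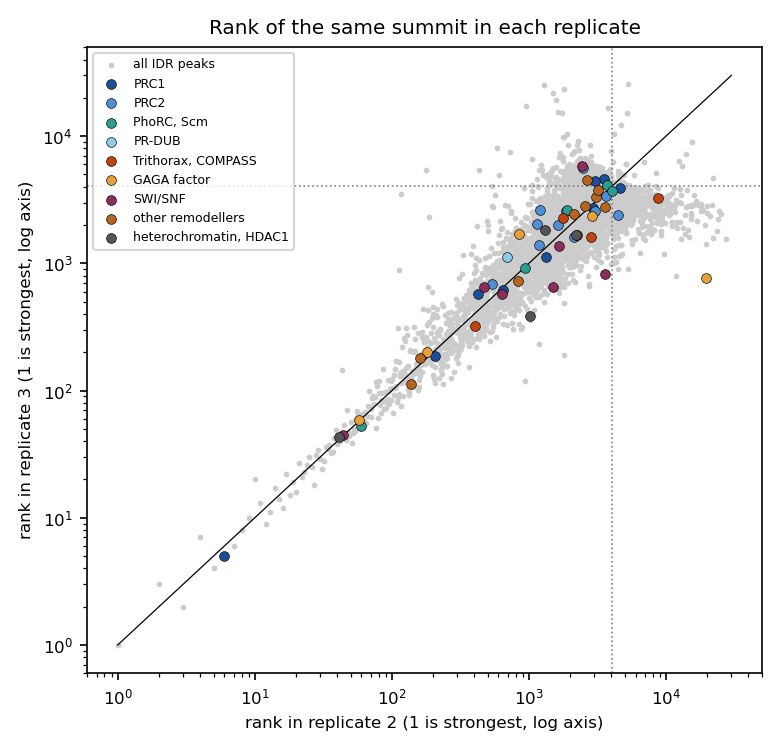
Rank of the entry nearest to each IDR summit in replicate 2 (x axis) and replicate 3 (y axis), log axes, 1 being the strongest; grey points are all IDR peaks, coloured points the 56 member peaks, dotted lines the rank of 4045 and the diagonal equal ranks. The strongest member points, such as ph-p at 6 and 5, are on the diagonal, and the orange point at 19591 is the Trl peak for which a stronger entry of replicate 2 was also within 200 bp.

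Counted in each replicate alone, the promoters gave much the same picture. Among the 4045 strongest entries of replicate 2, 24 of 41 genes (58.5%) had one at a TSS, beside 19.2% of all genes. In replicate 3 the count was 21 of 41 (51.2%), beside 19.4%. A TSS entry in both top lists was present at 18 of 41 genes and at 16.2% of all genes.

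Many of the genes without a TSS peak had a weaker entry there, below the IDR list. Of the 21, 12 (57.1%) had a TSS entry past rank 4045 but within rank 8090 of the pooled relaxed list, beside 14.5% of the 11230 genes without a TSS peak. They were Acf (rank 4219), ash2 (4253), osa (4304), kis (4429), Iswi (4670), Bap55 (5412), ph-d (5582), Psc (5653), phol (6482), Mi-2 (6927), Asx (6935) and trx (7523). Their signal values fell from 76.82 at Acf to 49.92 at trx, all under the lowest IDR value of 79.5. ash1, Snr1, dom, Scm and escl had one farther down, from rank 10786 to 27234. Sce, Pcl, caly and HDAC1 had none. With the 8090 strongest entries, 32 of 41 genes (78.0%, 62.4 to 89.4) were reached at a TSS, beside 31.2% of all genes. With all 30000 entries 37 of 41 were (90.2%, 76.9 to 97.3), beside 53.4%. The relaxed lists hold background by the authors' own description, so an entry below the IDR list is not a called site.

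**Figure D5:**
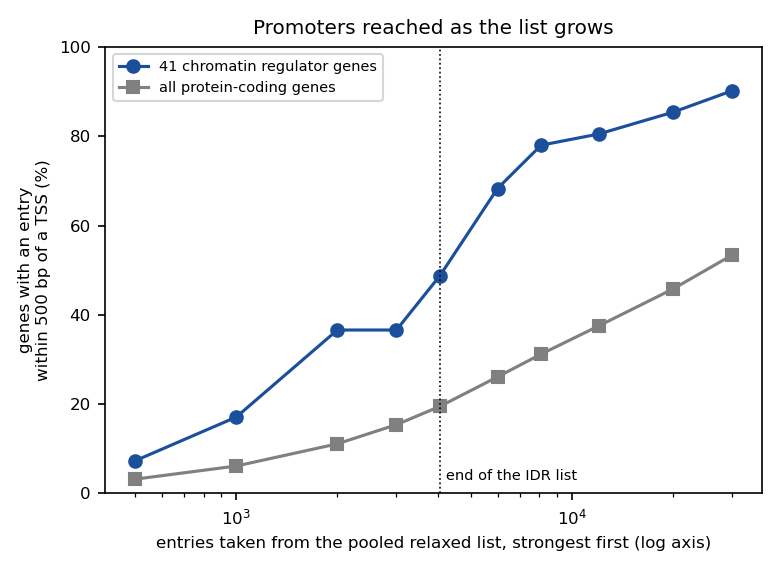
Percentage of genes with an entry within 500 bp of a TSS (y axis) as more entries of the pooled relaxed list are taken, strongest first (x axis, log scale), for the 41 genes (blue circles) and all protein-coding genes (grey squares); the dotted line is the end of the IDR list. The blue line is above the grey at each of the 10 cuts, with 36.6% and 11.1% at 2000 entries and 78.0% and 31.2% at 8090.

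The 200 bp windows around member summits were searched on both strands for 9 words named for known factors. TTACGTAA, the palindrome that PAR bZIP factors of mammals bind, was in none of the 56 windows, in 0.371% of all IDR windows and in 0.249% of the 19252 windows around protein-coding TSSs. TTATGTAA, a near form of it, was in 1 window (1.79%), at the weaker 5′ UTR peak of ph-p, and in 1.58% of IDR and 1.06% of TSS windows. TGACGTCA, the cAMP response element, was in none (IDR 0.321%, TSS 0.275%). A count of 0 in 56 windows allows a share of up to 6.38% (upper end of the 95% exact interval).

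Words of promoter and Polycomb factors were found at shares near those of all windows. The DRE, TATCGATA, was in 2 windows (3.57%, 0.435 to 12.3), at Sfmbt and Su(var)3-9, beside 4.94% of IDR and 6.44% of TSS windows. Both were TSS-proximal, a class in which 8.45% of IDR windows had it, while 0.608% of distal ones did. GAGAG, the core of the GAGA factor site, was in 10 windows (17.9%; IDR 23.3%, TSS 24.9%), and in none of the 5 at Trl. GCCAT, the Pho core, was in 14 (25.0%; IDR 27.7%, TSS 30.7%), and in none at pho or phol. CACGTG was in 1 window, at trr (IDR 2.50%, TSS 2.79%), GGTCACAC in 1, at esc (IDR 2.67%, TSS 5.68%), and CAGGTA, the Zelda site, in none (IDR 4.43%, TSS 4.25%). A match is a run of letters and not a measured site, and no match says only that the letters are not in the window.

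Another pair of words, ACAGTG and ACACTG, was added after the sequences of all IDR peaks had been seen, so their shares describe that choice. Each was in 14 of the 56 member windows (25.0%, 14.4 to 38.4) and in 20.8% of all IDR windows. In TSS windows ACAGTG was in 9.69% and ACACTG in 14.2%. They can overlap, as in the ACACTGT of the Ino80 window. Either word was in 22 of 56 (39.3%, 26.5 to 53.2), in 35.6% of IDR and in 20.0% of TSS windows. Of the 10 strongest member windows 5 had one, at Su(var)205, osa, Trl, Ino80 and the second ph-p peak, beside 39.4% of the 500 strongest IDR windows. The strongest ph-p, phol, Mi-2 and trx windows had neither, and nor did the TSS window of Trl. Whether any factor reads these words was not tested.

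A further 69 chromatin genes that are not among the 41, such as other COMPASS, NuRD, INO80 and heterochromatin genes, were counted in the same way. Of them 31 (44.9%, 32.9 to 57.4) had a TSS peak and 35 (50.7%) a peak in the span. Among all protein-coding genes the shares were 19.5% and 27.7%, and among the 41 they were 48.8% and 73.2%. A TSS peak was thus about as common in these further genes as in the 41. The 5 with the highest signal at a TSS were Sin3A, a corepressor scaffold (274.9; ranks 738 and 494), mxc, a histone locus body gene (212.1; 818 and 1028), lolal, a BTB partner of the GAGA factor (210.3; 839 and 917), Chd1, a remodeller of transcribed genes (198.3; 1400 and 836), and psq, a GAGA-binding BTB factor (191.7; 1254 and 983). All 5 were below the TSS peaks of ph-p, Trl and Ino80.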

How the data were processed

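ChIP-seq of CG7786-eGFP was analysed in 2 libraries of 1 group. What separated replicates 2 and 3, other than their label, was not stated. The labels' description names a GFP antibody and their antibody field names CG7786, so the antibody is unsettled. Fragments were sonicated to a size range of 200 to 800 bp, per the labels. Relaxed lists were called on each replicate and on the pool against 1 control alignment, and the IDR list was made from them, per the text deposited with each library. For the aligner, the caller, the IDR threshold and all versions, the sources used here name none. The signal value deposited by the authors is a score on the scale of their caller, and each list ends at 30000 entries. The deposited −log10 q-value is 3.91 for every dm6 IDR peak and ranks nothing. The 4045 IDR peaks are the 4045 pooled entries of highest signal value. Depth is unknown. The dm3 lists and the control were not used here.

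Positions are 1-based on dm6, the Release 6 assembly, with the Ensembl release 115 annotation and the RefSeq genome sequence of that assembly. Summits were assigned to genes within 500 bp of a TSS or in the gene body plus 2000 bp upstream, and matched between lists within 200 bp, taking the nearest entry for ranks and any entry for presence. The genes, lists and words were chosen with earlier results of these data known. Shares carry 95% exact (Clopper-Pearson) intervals that cover counting error only, and no test was run. All 41 genes are named. Ranks are given for most peaks, and coordinates for the 12 genes with the strongest peaks. Sequences are given for some strong promoter windows off arm 2R, with UTR bases removed. The promoter windows of Trl (431.3), the second ph-p peak (422.5), Bap60 (269.8) and Su(z)12 (259.1) are not shown. Their summits were in 5′ UTR sequence, and each was stronger than some of the windows shown. The Trl, osa and Mi-2 windows that are shown, away from the TSSs of these genes, were chosen after their values were seen. In the list of 69 further genes, Bap180 is the same gene as polybromo and was counted once, lid was counted as Kdm5, and dsp1 was left out because its name also matched a synonym of another gene. Assignment and word search were checked on planted summits and words. Python 3.11.15, numpy 2.4.6, pandas 2.3.3, scipy 1.17.1 and matplotlib 3.10.9 were used. Alternatives varied the windows, list length, replicate, TSS choice and gene body.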

Additional observations from a re-analysis of the deposited data

How the results depend on the processing

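Of 27 alternative settings, 24 left the counts and shares within 1.5 times of the main count or within its interval. None was scored as reversed, though this rule did not use the shares of all genes or peaks. In the main setting the DRE share was lower in member windows than in all windows (3.57% and 4.94%). Without replicate 2 it was lower too (3.64% and 4.97%). It was higher with narrower windows (3.57% and 2.62%) and with wider ones (8.93% and 7.34%). It was also higher among the stronger IDR peaks (5.88% and 4.45%) and without replicate 3 (5.97% and 4.85%). With the 8090 strongest pooled entries, 32 of 41 genes had one at a TSS (31.2% of all genes). Among the 16 genes with no other gene's TSS within 500 bp the count was 6 (11.2% of all such genes), since fewer genes were counted. With the gene body alone, and no upstream bases, 13 of 41 genes had a peak (11.0% of all genes). With 1 replicate alone, the TSS count ran from 21 to 24 and the span count from 29 to 30. No paired analysis was possible because there is 1 group and no test. Read depth is unknown, so a gene without a peak was not detected in these lists and is not shown to lack CG7786-eGFP.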
